A study of Homo sapiens with 4 samples.

Results

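Antisense genes carry a symbol that ends in -AS and a number and are named after the gene that they lie against. In the total RNA of extracellular vesicles (EVs) from PC3 cells, 92 of the 1809 antisense genes in the count table had at least 100 reads summed over both libraries (5.09%). Of all 58051 genes, 960 had as many. Antisense genes were 9.58% of those 960 and 3.12% of all genes in the table. The 92 genes were chosen by these read counts, so their high counts are a description and carry no test. All 92 are annotated as long non-coding RNA genes in GENCODE, and 91 have a namesake in the table, which in each case is a protein-coding gene. SLC9A3R1-AS1 was matched to NHERF1, the present symbol of its namesake, and MYL12-AS1 has no namesake of that exact symbol.

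PC3 is an established prostate cancer line that was grown from a metastasis in bone. The EVs were isolated on columns from culture medium with exosome-free serum, and their RNA was sequenced as 2 total RNA libraries, replicates 1 and 2, prepared with a kit that preserves strand. A pair of small RNA libraries from the same kind of EVs was not used here. Both libraries come from PC3 EVs of a single line and a single condition, with no cell RNA or other EVs beside them, so no test between conditions applied and an exact permutation test over 2 libraries cannot go below p = 0.5.

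An antisense gene is transcribed from the strand opposite its namesake, and its exons may lie across those of the namesake, start beside its promoter or sit within an intron. Some antisense RNAs are known to act on the namesake, by shaping chromatin at its promoter or by pairing with its mRNA, while for most no function is known. Where exons of a pair face each other, unspliced reads are told apart only by strand.

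In total 489170 reads were counted on genes in replicate 1 and 475942 in replicate 2, which is 2.50% and 2.16% of the reads listed in the tables. Of the listed reads, 45.5% and 48.1% were not uniquely aligned, and 36.3% and 35.4% fell in no annotated feature. At this depth 1 read equals 2.04 and 2.10 CPM (reads per 1000000 reads on genes), and a count of 0 allows up to 3 reads, or 6.13 and 6.30 CPM. Intervals and floors cover counting error only, since amplified reads are not independent molecules. Of the epithelial and mesenchymal genes that PC3 cells express, all 6 had reads, led by the keratin gene KRT8 with 966 and 1088 reads, while 0 of 5 prostate luminal genes and 0 of 5 blood cell genes had a read. Of 5 genes for vesicle proteins, 4 had a read, and the tetraspanin gene CD9 had 0 reads in both libraries. The strand setting of the counting is not given in the sources used here. With a kit that preserves strand, counting on the opposite strand would give reads of a namesake, where exons face each other, to the antisense gene and the reverse. Each level below is therefore the count deposited under that gene's name, and whether strand was read as intended was not tested.

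The antisense genes with at least 100 reads took a larger share of the gene reads than their namesakes. The choice on antisense reads, with no minimum for namesakes, favours that order by itself. The antisense genes held 15765 reads in replicate 1, or 3.22% (95% Wilson interval 3.17 to 3.27%), and 16331 reads in replicate 2, or 3.43% (3.38 to 3.48%). Their mean share was 3.33% ± 0.147 (SD, n = 2), against 0.730% ± 0.0323 (SD, n = 2) for the namesakes, which held 3681 and 3364 reads. The 92 genes accounted for 69.5% ± 0.523 (SD, n = 2) of the reads on all antisense genes and for 22.5% ± 0.0316 (SD, n = 2) of those on all long non-coding RNA genes. The 5 highest took 36.7% ± 0.873 (SD, n = 2) of the reads on the 92 genes, whose median was 185.5 reads summed over both libraries, against 47 for the namesakes.

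The highest count was that of VIM-AS1, which lies against VIM, the gene of the intermediate filament protein vimentin. VIM-AS1 (ENSG00000229124, chr10:17214239-17230018 of GRCh38, minus strand) had 1958 and 2209 reads, and VIM had 130 and 87. Reads on VIM-AS1 outnumbered those on VIM 15.1-fold in replicate 1 (95% counting interval 12.6 to 18.1) and 25.4-fold in replicate 2 (20.5 to 31.8). Per kilobase of merged exon, the log2 ratio was 5.57 ± 0.53 (SD, n = 2). In both libraries the count deposited under VIM-AS1 was far above that of VIM, which is itself a marker of these cells. The choice on antisense reads favours that order. Of the 2126 bases of VIM-AS1 exon, 656 lie opposite exons of VIM, and the part of the strand setting in these counts was not tested.

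TUBA1B-AS1 followed with 1289 and 1245 reads, while TUBA1B, an alpha-tubulin gene of the microtubules, had 34 and 95. RPL30-AS1 had 1161 and 1171 reads, and RPL30, which encodes a protein of the large ribosomal subunit, had 26 and 43. The log2 ratios per kilobase were 4.09 ± 1.07 and 6.11 ± 0.50 (SD, n = 2). In both pairs the antisense counts lay close together between the libraries. That they lay above those of the namesake is favoured by the choice on antisense reads.

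TTN-AS1 (ENSG00000237298, chr2:178521183-178779963, plus strand) lies against TTN, the gene of the giant sarcomere protein titin. It had 835 and 994 reads, against 13 and 2 on TTN. The ratio of reads was 64.2 in replicate 1 (37.4 to 121) and 497 in replicate 2 (137 to 4110), so its size in replicate 2 rests on 2 reads of the namesake. TTN-AS1 has 14004 bases of exon opposite exons of TTN, the most of all pairs.

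KIF1C-AS1 (ENSG00000227495, chr17:5019214-5020093, minus strand) stood apart among the 5 highest. It had 447 and 477 reads, fewer than the 628 and 559 reads of KIF1C, a gene of a kinesin motor protein. Its exons span 583 bases against 8578 bases for KIF1C, so that per kilobase it was higher, by 3.52 ± 0.18 on the log2 scale (SD, n = 2). The direction for this pair thus depends on whether length is taken into account.

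**Figure D1:**
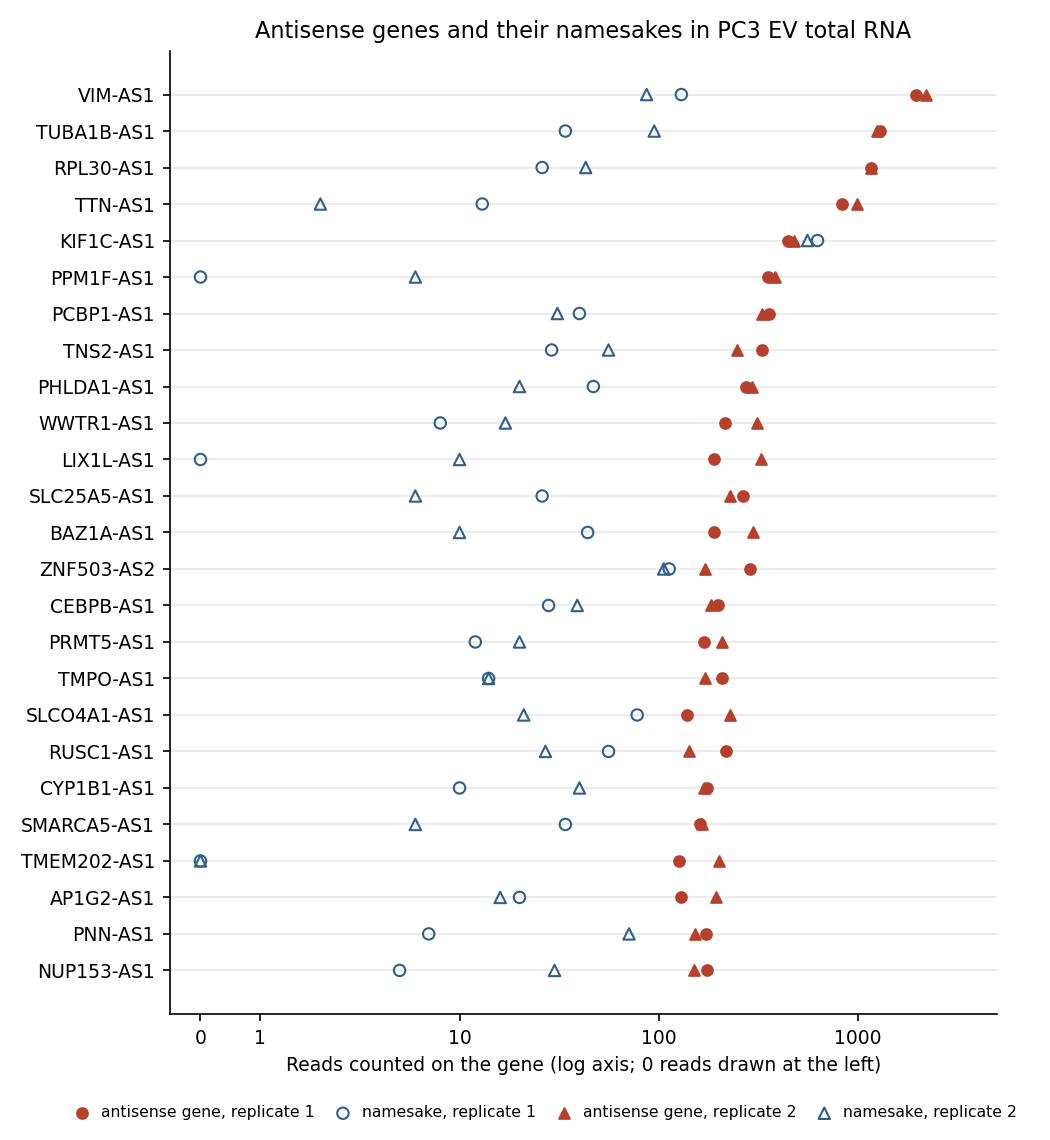
Reads on the 25 antisense genes with the highest mean CPM (filled) and on their namesakes (open) in replicates 1 (circles) and 2 (triangles), on a log axis with counts of 0 drawn at the left edge. KIF1C-AS1, with 447 and 477 reads, is the gene whose namesake, with 628 and 559, lies to its right.

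Several further genes of high count lie against regulators of transcription and chromatin. WWTR1-AS1 had 216 and 312 reads, and WWTR1, a coactivator in the Hippo pathway, had 8 and 17. BAZ1A-AS1 had 189 and 298 reads against 44 and 10 on BAZ1A, a chromatin remodelling subunit, and SMARCA5-AS1 had 162 and 166 against 34 and 6 on SMARCA5, a remodelling ATPase. CEBPB-AS1 had 199 and 183 reads against 28 and 39 on CEBPB, a leucine zipper transcription factor. ZNF503-AS2 had 286 and 170 reads against 113 and 106 on ZNF503, a zinc finger gene, and its log2 ratio per kilobase of 0.94 ± 0.46 (SD, n = 2) was the lowest of these 5 pairs. The antisense count was above that of the namesake in both libraries in each of the 5, which the choice of high antisense counts favours.

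Among genes against enzymes, PPM1F-AS1 had 356 and 386 reads, and PPM1F, a protein phosphatase, had 0 and 6. PRMT5-AS1 had 169 and 208 reads against 12 and 20 on PRMT5, an arginine methyltransferase. CYP1B1-AS1 had 174 and 169 reads against 10 and 40 on the cytochrome P450 gene CYP1B1. In these pairs the antisense counts differed less between the libraries than the counts of the namesakes, on the scale of ratios. Counting error is wider for these namesakes, which had far fewer reads.

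Genes of transport and of the nuclear envelope gave the same order. SLC25A5-AS1 had 264 and 227 reads against 26 and 6 on SLC25A5, a mitochondrial ADP/ATP carrier, and SLCO4A1-AS1 had 139 and 229 against 78 and 21 on SLCO4A1, an organic anion transporter. AP1G2-AS1 had 130 and 195 reads against 20 and 16 on AP1G2, a clathrin adaptor subunit. TMPO-AS1 had 207 and 170 reads against 14 and 14 on TMPO, which encodes lamina-associated proteins, and NUP153-AS1 had 175 and 150 against 5 and 30 on NUP153, a nuclear pore gene. In each of these pairs both antisense counts lay above those of the namesake, which the choice of high antisense counts favours. Over all 794 pairs with at least 10 reads on either gene, 28% had more antisense reads in both libraries.

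The other members of the 25 highest were of mixed function. TNS2-AS1 had 332 and 247 reads against 29 and 56 on TNS2, a focal adhesion gene, and PHLDA1-AS1 had 274 and 294 against 47 and 20 on PHLDA1. PNN-AS1 had 173 and 153 reads against 7 and 71 on PNN, the gene of the splicing-associated protein pinin, and RUSC1-AS1 had 218 and 142 against 56 and 27 on RUSC1. LIX1L-AS1 had 189 and 326 reads against 0 and 10 on LIX1L. PCBP1-AS1, against the gene of an RNA-binding protein, had 357 and 332 reads and PCBP1 40 and 31, yet with 33645 bases of exon against 1727 it was lower than PCBP1 per kilobase of merged exon, with a log2 ratio of -1.01 ± 0.18 (SD, n = 2). Per kilobase of the longest annotated transcript the direction turned, with a log2 ratio of 1.81. Part of its exon, 1528 bases, is shared with another gene on the same strand, and 9 of the members with a namesake share exon in this way.

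Across the 91 pairs, the antisense gene was higher per kilobase in both libraries in 84, lower in both in 3 and of mixed direction in 4. Over all pairs it was higher in both libraries in 359 of the 794 with at least 10 reads on either gene (45.2%). In raw reads 77 of the 91 were higher in both libraries, against 222 of 794 pairs (28%). The selection on antisense reads raises these counts by itself, so nothing is read from the difference. When pairs were taken with at least 100 reads on either gene, 77 of 143 had more reads on the antisense gene in both libraries (53.8%), and 93 of 143 were higher per kilobase (65.0%). Of the 66 pairs with at least 100 reads on the namesake, a choice that favours the namesake, 5 had more antisense reads in both libraries and 54 fewer, and per kilobase 20 were higher and 37 lower. The median log2 ratio per kilobase of the 91 pairs was 4.13, with 3.70 in replicate 1 and 4.28 in replicate 2 and over the 794 pairs it was 1.32. Over the 74 members whose namesake had reads in both libraries, the ratio ranged from -2.01 to 9.52, and for the others its size depends on the pseudocount. With namesakes under 3 reads set to 3 reads, the median was 3.81.

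**Figure D2:**
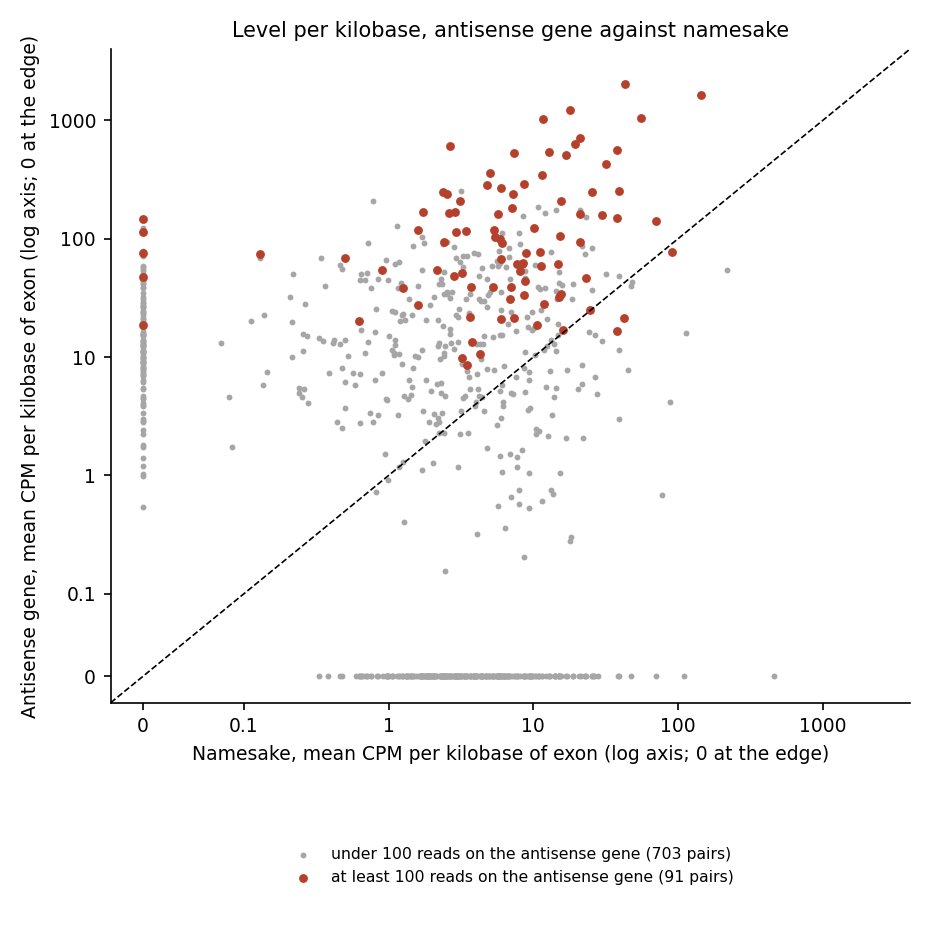
Mean CPM per kilobase of exon of each antisense gene against that of its namesake for 794 pairs with at least 10 reads on either gene, on log axes with 0 drawn at the edges, and with a dashed line of equal level. The 91 pairs with at least 100 antisense reads (red) lie mostly above the line, as the choice on antisense reads favours.

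The 3 pairs with the highest ratio per kilobase at a pseudocount of 0.5 reads were BZW1-AS1, PPP1R12A-AS2 and TTN-AS1, with log2 ratios of 10.16, 9.77 and 9.52. At a pseudocount of 5 reads they were 6.94, 8.08 and 8.57, so the order among them is set by the pseudocount. BZW1-AS1 had 71 and 53 reads, and BZW1, a regulator of translation, had 0 in both libraries, so that reads on the antisense gene were at least 23.7-fold and 17.7-fold higher against a floor of 3 reads per library. PPP1R12A-AS2 had 111 and 96 reads and its namesake, a myosin phosphatase subunit gene, 31 and 0. Its exons face none of the namesake, but 248 of its 354 bases of exon lie opposite exons of PAWR, which had 49 and 54 reads. Counts of 0 in both libraries were found for 5 namesakes, namely TMEM202, SMIM15, CHMP3, BZW1 and UXT, and in 1 library for 12 more. TMEM202-AS1, with 126 and 201 reads, was at least 42.0-fold and 67.0-fold above TMEM202 in reads.

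The 3 lowest ratios were those of CCDC18-AS1, PCBP1-AS1 and H1-10-AS1. H1-10-AS1 had 128 and 127 reads and H1-10, a linker histone gene, 68 and 66, and per kilobase the antisense gene was lower, with a log2 ratio of -0.25 ± 0.02 (SD, n = 2). With the longest annotated transcript as the length it was 0.15, so the direction of this pair depends on how length is taken. CCDC18-AS1 had 95 and 8 reads against 136 and 142 on CCDC18, a ratio of -2.01 ± 2.51 on the log2 scale per kilobase (SD, n = 2), so its size is smaller than the spread between the libraries.

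The 5 members whose namesakes had the most reads were KIF1C-AS1, LAMA5-AS1, CCDC18-AS1, RNF213-AS1 and JMJD1C-AS1. LAMA5-AS1 had 129 and 86 reads, and LAMA5, a laminin chain gene of the basement membrane, had 215 and 320, while per kilobase the antisense gene was higher, by 2.73 ± 0.82 on the log2 scale (SD, n = 2). RNF213-AS1 had 157 and 121 reads against 101 and 139 on RNF213, a ubiquitin ligase gene, so these counts overlapped. Across the 91 pairs the Spearman correlation of antisense with namesake reads was 0.259, a description across genes that share both libraries.

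By position, 47 members lay head to head with the namesake (51.6%, against 31.4% of the 1789 pairs in the table), 22 lay inside it (24.2% against 45.4%) and 15 lay tail to tail (16.5% against 13.7%). Of the others, 6 lay around the namesake and 1 did not overlap it. Starts lay within 1000 bases of each other in 27 pairs (29.7%, against 18.2%). Exons faced exons of the namesake in 88 of 91 members (96.7%), against 60.6% of all pairs, over a median of 400 bases and a range of 13 to 14004. The 3 without such exons were PPP1R12A-AS2, PPP1R15B-AS1 and DNAJC9-AS1. These properties are from the annotation, which the choice of members did not read directly, but members also have longer exons, with a median of 2922 bases against 1701. Counting on the opposite strand would tie membership to facing exons, and this was not tested.

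The share of pairs with more reads on the antisense gene in both libraries differed by depth and by facing exons. With facing exons, the antisense gene had more reads in both libraries in 23 of 160 pairs with 10 to under 30 reads on the pair (14.4%), in 94 of 244 with 30 to under 100 (38.5%), in 59 of 111 with 100 to under 300 (53.2%) and in 32 of 43 with 300 or more (74.4%). Without facing exons the numbers were 4 of 122 (3.28%), 7 of 90 (7.78%), 3 of 27 (11.1%) and 0 of 6. Per kilobase the shares were 40.6%, 50.8%, 71.2% and 86.0% with facing exons and 26.2%, 16.7%, 29.6% and 0% without, so that without them the share did not climb steadily with depth. In raw reads the antisense gene had fewer in both libraries in 17.5%, 32.4%, 27.0% and 16.3% of pairs with facing exons. Without facing exons it did in 39.3%, 71.1%, 74.1% and 100%. The remaining pairs had no single direction, where pairs of few reads fall more easily, so a rising share is not a shift in direction alone. Pairs were grouped here by their summed reads, whichever gene held them. From 100 reads on the pair upward, 48 of 111 and 40 of 43 pairs with facing exons were members, against 3 of 27 and 0 of 6 without. The choice of members on antisense reads favours the higher shares in those groups. The part of facing exons and of the strand setting in these shares was not tested.

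**Figure D3:**
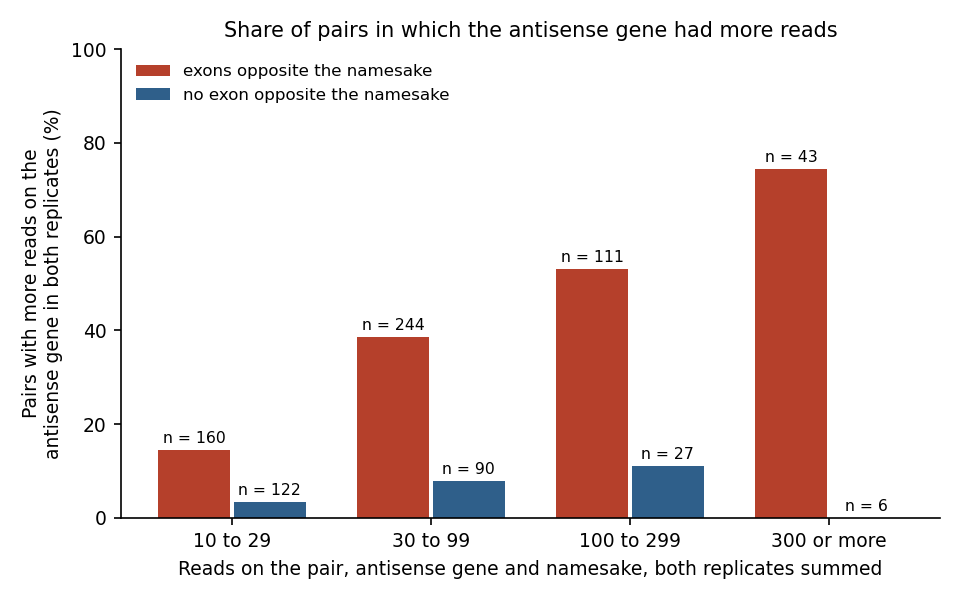
Percentage of pairs with more reads on the antisense gene in both replicates, by the reads on the pair, for pairs with exons opposite the namesake (red) and with none (blue), with the number of pairs above each bar. The red bars run from 14.4% to 74.4%, and the blue bars stay at or below 11.1%. From 100 reads upward, 48 of 111 and 40 of 43 pairs in the red bars are members, chosen for high antisense reads. Pairs outside the bars had fewer antisense reads in both replicates or no single direction.

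In 3 members every base of exon lay opposite an exon of the namesake. KXD1-AS1 (432 bases) had 120 and 175 reads against 58 and 26 on KXD1. MUC5B-AS1 (434 bases) had 63 and 81 reads against 67 and 138 on the mucin gene MUC5B, and per kilobase it was higher, by 4.99 ± 0.48 on the log2 scale (SD, n = 2). RPS6KB2-AS1 (470 bases) had 50 and 58 against 0 and 14 on RPS6KB2, a kinase gene. For these 3, strand alone separates the reads of the pair, apart from splicing. Each has 1 annotated intron, whose ends are shown because a spliced read would carry the strand in them, 5′ to 3′ on the antisense strand of GRCh38, with 10 bases of exon and 10 of intron at each end and the first and last intron bases in capitals.
KXD1-AS1 donor, intron at chr19:18568792-18569229, minus strand: ggcccctcagGTtccacacc
KXD1-AS1 acceptor: acccccccAGgaattccaca
MUC5B-AS1 donor, intron at chr11:1242639-1249620, minus strand: gaggatccagGTcgtccccg
MUC5B-AS1 acceptor: gtggatccAGtggacgcagt
RPS6KB2-AS1 donor, intron at chr11:67431494-67435056, minus strand: ggaggtagagGTagctccgt
RPS6KB2-AS1 acceptor: caaggatgAGgtagagtttg

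All 3 introns begin with GT and end with AG on the antisense strand, the usual order of spliceosomal introns. Over the 86 members with an annotated intron, 835 of 870 introns did so (96.0%), 28 began with GC and ended with AG, and 1 began with CT and ended with AC. The 6 without an intron were BAZ1A-AS1, GOLGA4-AS1, JMJD1C-AS1, NUP153-AS1, UCKL1-AS1 and ZBTB11-AS1. These are annotated introns, and the counts do not show whether reads were spliced.

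Windows of 300 bases at the annotated start, 250 before it and 50 from it on, held a median of 17 CG pairs in the 92 members, against 7 in the 1717 other antisense genes, 24 in the namesakes and 18 in all protein-coding genes. Among head to head genes alone the median was 17 in members and 17 in the others, but it was 9 against 4 inside the namesake and 26 against 11 tail to tail. The motif GGGCGG, a GC box, occurred on either strand in 54.3% of members, 33.3% of the other antisense genes and 27.3% of all genes. In the namesakes it occurred in 64.8% and in all protein-coding genes in 52.6%, so members lay close to coding genes. TATAAA occurred in 9.78% of members, 11.8% of the other antisense genes and 17.3% of all genes, and CCAAT in 30.4%, 31.7% and 36.5%, so for these motifs members lay close to the other antisense genes. A match is a description of these letters and not a site. Windows of 3 of the 25 highest members are shown to span this range, and they were chosen after their CG counts were seen. The sequences are of GRCh38, 5′ to 3′ on the strand of the antisense gene, with CG pairs in capitals.
TTN-AS1 chr2:178520933-178521232, plus strand: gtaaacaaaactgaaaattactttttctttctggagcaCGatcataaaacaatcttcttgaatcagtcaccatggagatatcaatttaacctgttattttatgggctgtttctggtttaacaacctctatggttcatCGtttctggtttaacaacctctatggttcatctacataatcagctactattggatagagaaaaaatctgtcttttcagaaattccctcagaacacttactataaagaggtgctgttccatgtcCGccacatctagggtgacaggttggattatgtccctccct
TNS2-AS1 chr12:53054401-53054700, minus strand: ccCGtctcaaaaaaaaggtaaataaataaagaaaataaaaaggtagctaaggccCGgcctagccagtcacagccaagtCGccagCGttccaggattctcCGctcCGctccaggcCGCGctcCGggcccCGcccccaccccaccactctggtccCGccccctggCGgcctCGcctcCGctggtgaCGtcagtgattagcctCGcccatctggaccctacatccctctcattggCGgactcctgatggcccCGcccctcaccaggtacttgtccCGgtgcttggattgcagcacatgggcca
SLC25A5-AS1 chrX:119469079-119469378, minus strand: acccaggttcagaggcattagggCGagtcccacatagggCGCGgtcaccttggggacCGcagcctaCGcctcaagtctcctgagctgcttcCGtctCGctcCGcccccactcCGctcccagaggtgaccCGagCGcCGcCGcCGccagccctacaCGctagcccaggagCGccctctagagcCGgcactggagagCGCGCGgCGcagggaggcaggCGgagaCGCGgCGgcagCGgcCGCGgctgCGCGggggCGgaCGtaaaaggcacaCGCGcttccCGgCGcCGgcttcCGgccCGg

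The window of TTN-AS1 held 3 CG pairs, that of TNS2-AS1 19 and that of SLC25A5-AS1 39. TTN-AS1 has a TATAAA and no GC box in this window, and the other two have a GC box and no TATAAA. TTN-AS1 had the highest count of the 3, with 835 and 994 reads.

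Between the libraries, 20 of the 92 members were over 2-fold apart in CPM (21.7%), close to the share of all 960 genes with at least 100 reads (21%). None of the 11 members with at least 500 reads was, against 3 of 33 with 200 to under 500 and 17 of 48 with 100 to under 200. To see whether 1 library had been deposited under both names, the counts were compared, and the chi-square against counting noise alone was 14.2 per degree of freedom over the members and 20.6 over the 960 genes, and the libraries were kept as separate samples. The 3 furthest apart were SREBF2-AS1 with 7 and 104 reads, CCDC18-AS1 with 95 and 8, and JMJD1C-AS1 with 13 and 107. Their namesakes SREBF2, a sterol-responsive transcription factor gene, CCDC18 and JMJD1C, a gene of the demethylase family, had 33 and 8, 136 and 142, and 159 and 69 reads. Over the 74 pairs with namesake reads in both libraries, the Spearman correlation of the log2 change between the libraries was -0.270, again across genes that share the libraries. Of 81 namesakes with at least 10 reads, 46 were over 2-fold apart, at lower counts.

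**Figure D4:**
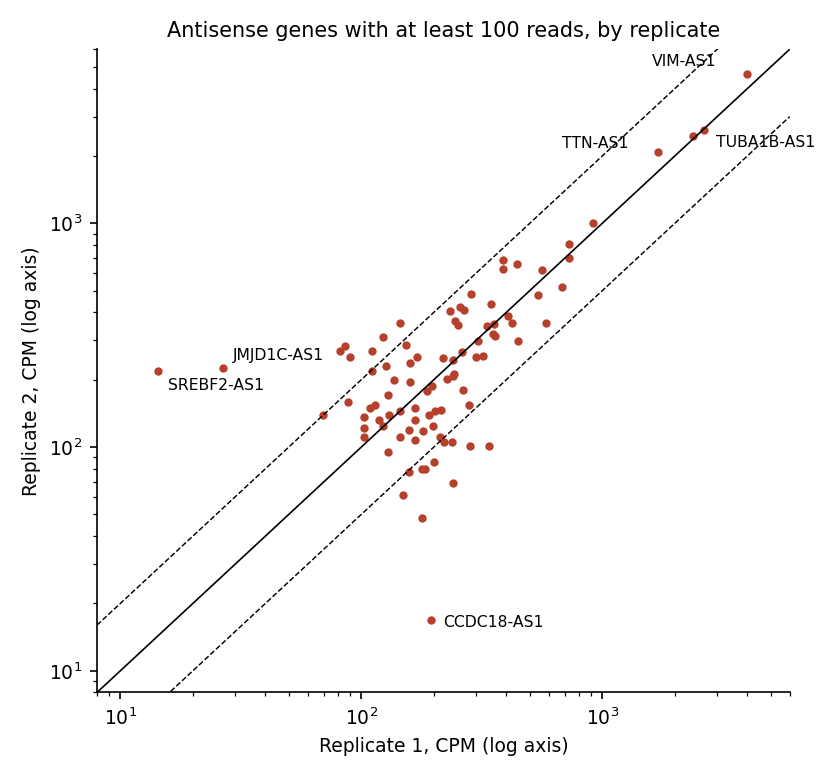
CPM of the 92 members in replicate 2 against replicate 1 on log axes, with a solid line of equal level and dashed lines at 2-fold. VIM-AS1 and TUBA1B-AS1 lie near the solid line at the top, and SREBF2-AS1, JMJD1C-AS1 and CCDC18-AS1 lie farthest outside the dashed lines.

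At the limit of 100 reads, ALDH1A2-AS1 with 34 and 66 reads, DNAJC9-AS1 with 73 and 29 and CCDC18-AS1 with 95 and 8 lay just inside. PITX1-AS1 with 91 and 8 reads, PPP1R12A-AS1 with 49 and 49 and YEATS2-AS1 with 46 and 52 lay just outside. The sums of these 6 genes ran from 98 to 103 reads.

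MYL12-AS1 had 54 and 128 reads. Its exons face those of MYL12A and MYL12B, genes of myosin regulatory light chains, which had 2 and 8 reads and 0 and 0. In all, 26 members had exons opposite a coding gene other than the namesake, and of the 28 such genes in the counts, 26 had fewer reads than the member in both libraries, a count that the choice of members by their reads favours. KMT2D, a histone methyltransferase gene opposite DDN-AS1, had more, with 134 and 148 reads against 77 and 57.

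Namesakes were also grouped by how their symbols begin, which takes in only some genes of each function. Members were 2 of 17 antisense genes whose namesake symbol begins like those of vimentin, actins, tubulins, keratins, lamins, myosins, thymosins or tropomyosins (VIM-AS1 and TUBA1B-AS1), and 2 of 7 with RPL, RPS, EIF or EEF (RPL30-AS1 and RPS6KB2-AS1, the latter against a kinase). They were 2 of 61 with ZNF, ZBTB, ZSCAN or ZFH (ZNF503-AS2 and ZBTB11-AS1), 1 of 18 with RAB, VPS, SNX, ARF, STX or TSPAN or a tetraspanin CD symbol (RAB11B-AS1) and 0 of 23 with HOX, PAX, SOX, FOX, GATA, NKX or LHX. Over all antisense genes the share was 5.09%.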

How the data were processed

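The total RNA reads were aligned to GRCh38 by the authors, and the deposited values are HTSeq output, whole-number counts for each Ensembl gene without normalisation. Tool versions, annotation release and strand setting are not given in the sources used here. Replicates are biological per the study's methods, although the title of the second total RNA sample carries the name of the first preparation and its description that of the second, so separate isolates are not certain and the SDs may be technical. Genes were matched by identifier to GENCODE release 44, and the namesake by symbol. Counts were scaled to CPM, and levels of different genes were compared per kilobase of merged exon, with a pseudocount of 0.5 reads in log2 ratios. Named are the 25 members with the highest mean CPM, those just over and under the minimum, the highest and lowest ratios, those furthest apart between replicates, the namesakes with most reads and the member with no namesake. Members, lists and rules were chosen with earlier results of these data known. No statistical test was run, as each assay has 1 condition. Scaling factors came from edgeR 4.0.16 and DESeq2 1.42.0 in R 4.3.3, and other values from Python 3.11.15 with numpy 2.4.6, pandas 2.3.3 and scipy 1.17.1. The code for the ratios was checked on simulated counts. Plots used matplotlib 3.10.9. The small RNA counts were not used.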

Additional observations from a re-analysis of the deposited data

Results flagged for a closer look

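Reads that fit more than 1 gene were set aside as ambiguous and enter no comparison above. They came to 19.5% of the reads on genes and ambiguous reads together in replicate 1 and 24.0% in replicate 2, or 118736 and 150525 reads. Which genes these reads belong to is not in the counts.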

How the results depend on the processing

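With a minimum of 50 reads there were 184 members with 4.02% of gene reads, of which 162 of 183 were higher than the namesake per kilobase, 172 had facing exons and 64 were over 2-fold apart. With a minimum of 200 reads the values were 44 members, 2.62%, 42 of 44, 43 and 3. Without 7SL RNA and mitochondrial genes in the total, the share was 5.16%. The median log2 ratio was 2.81 in raw reads, 3.63 with a pseudocount of 5 reads and 3.59 for namesakes with at least 10 reads. Leaving out 1 replicate, with the minimum lowered to 50 reads in the one kept, gave 99 to 107 members. Leaving out 1 replicate with the members unchanged gave a share of 3.22 to 3.43%, 86 members higher in either case, and a median of 3.70 to 4.28. Other alternatives moved these values by less than 1.5 times or the SD. Of 210 values of named members, 9 in 6 members changed sign: in raw reads KIF1C-AS1 to -0.36, LAMA5-AS1 to -1.31, PCBP1-AS1 to 3.27, H1-10-AS1 to 0.92 and JMJD1C-AS1 to -1.47, by the longest transcript PCBP1-AS1 to 1.81 and H1-10-AS1 to 0.15, and without replicate 2 JMJD1C-AS1 to -0.50 and SREBF2-AS1 to -0.73, whose libraries already differed in direction. The raw scale divides by no length, and the longest transcript changes only the length used. Without replicate 2 the values are those of replicate 1 alone, and why the libraries differed was not tested. No paired analysis was possible because both libraries belong to a single condition. Depth limits the namesakes, with a median of 47 reads.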

Other observations

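Other classes of RNA named after a neighbour were counted at the same minimum of 100 reads, which 960 of all 58051 genes reached. Of 578 divergent transcripts, whose symbols end in -DT, 9 had at least 100 reads (1.56%), led by MVP-DT with 720 reads over both libraries. None of 127 intronic transcripts and none of 16 overlapping transcripts reached 100 reads, and the highest of them were AGBL5-IT1 with 6 reads and ST7-OT4 with 48. Among antisense genes the share was 5.09%. The intronic and overlapping groups are small, and no difference between classes was tested.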
